A study of Mus musculus with 24 samples.

Results

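A set of 56 transcripts was followed whose RNA was higher in limb buds that had lost 1 copy of Rps6, while their ribosome footprints stayed level. Mouse forelimbs were taken at E10.5, and each lysate was split between RNA-seq without ribosomal RNA and ribosome profiling. Ribosome profiling digests RNA with nuclease (here RNase A and RNase T1, after lysis with cycloheximide) and sequences the fragments that ribosomes protect (RPF, or footprints). The 4 genotypes were Rps6lox/+;Trp53+/+ (Rps6 WT, Trp53 WT), Prx1Cre;Rps6lox/+;Trp53+/+ (Rps6 het, Trp53 WT), Rps6lox/+;Trp53-/- (Rps6 WT, Trp53 null) and Prx1Cre;Rps6lox/+;Trp53-/- (Rps6 het, Trp53 null). All 4 carried the floxed Rps6 allele, and only the Rps6 het embryos carried Cre, so the deletion and the presence of Cre cannot be told apart. Prx1Cre is active in limb bud mesenchyme, so other cells of the limb bud keep the floxed allele intact, whereas Trp53-/- applied to the whole embryo. Each genotype had 3 pools of 2 embryos, and each pool gave 1 RNA and 1 RPF library, 24 libraries in all.

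Members were chosen from the libraries of Rps6 WT and Rps6 het in Trp53 WT. The measure was the log2 ratio of group mean CPM + 0.5, Rps6 het over Rps6 WT, where CPM is the usual scaling of a count by the total of its library. A row of the count table, 1 Ensembl transcript each, became a member if its mean was at least 20 CPM in both RNA and RPF of Rps6 WT, Trp53 WT, its RNA ratio at least 0.3, its RPF ratio within 0.2 of 0, and its RPF ratio less its RNA ratio at most -0.3. Of 21960 rows, 6136 met both CPM minimums, and 56 of these (0.913%) met the whole rule. Because these values chose the members, all values of the Trp53 WT comparison are given as description. The 12 Trp53 null libraries played no part in the choice, and tests are reported for them.

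Footprint counts follow the amount of an mRNA and the number of ribosomes on each copy. When RNA rises and footprints do not, the footprints per RNA fall, a ratio called translational efficiency (TE). RPS6 is a protein of the small ribosomal subunit. When ribosome assembly is disturbed, ribosomal proteins that are not built into subunits bind Mdm2, the ubiquitin ligase that keeps p53 low, and p53, the transcription factor encoded by Trp53, accumulates and induces genes of cell cycle arrest and apoptosis. Having both Trp53 genotypes, the design asks whether what follows the loss of 1 Rps6 copy is also seen without p53. The table gives transcript IDs without gene names, and 0 of the IDs matched the name tables used here, so the role of each member, its sequence and its length are not given. For the same reason Rps6 and Trp53 were not checked in the samples, and neither were lists of p53 targets, ribosomal proteins and markers of limb mesenchyme and other cells.

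RNA libraries held 14291854 to 29104669 counts and RPF libraries 7026056 to 16835045, and the lowest count of any member was 287 in an RNA library and 160 in an RPF library. Within a genotype, many members were high or low in the same RNA library. In Rps6 het, Trp53 null, replicate 3 was the lowest of its 3 RNA libraries for 51 of the 56 members. It was lowest for 29.8% of the 6136 rows. In RNA of Rps6 het, Trp53 WT, replicate 2 was the lowest for 43 of the 56, against 37.6% of the rows. In RNA of Rps6 WT, Trp53 null, replicate 1 was the highest for 43 (30.8% of the rows) and replicate 3 the lowest for 38 (25.8%). In RNA of Rps6 WT, Trp53 WT, replicate 1 was the highest for 38 of the 56 (42.6%). Some values below are given again with 1 library or pool left out. The counts of separated pools and the SD pooled over both Trp53 null groups are given with all libraries only.

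In Trp53 WT, RNA ratios of the members ran from 0.30 to 1.42 with a median of 0.44 on the log2 scale, and RPF ratios from -0.19 to 0.18 with a median of -0.02. Most RNA ratios were small: the ratio was under 0.4 for 20 members, between 0.4 and 0.5 for 20, between 0.5 and 0.6 for 11 and over 0.6 for 5. Footprints lay within 0.1 of no change for 37 members. Their direction depended on the scaling: the RPF ratio on library totals was above 0 for 25 members, and the TMM-scaled change in edgeR was above 0 for 43, with a median of 0.04. The difference, RPF less RNA, had a median of -0.44 and reached -1.47, and 13 members were at or below -0.5. Over the 6136 rows the medians were -0.03 for RNA, -0.06 for RPF and -0.03 for the difference. Since whole forelimbs were sequenced, more RNA per cell and more cells that hold a transcript cannot be told apart.

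**Figure D1:**
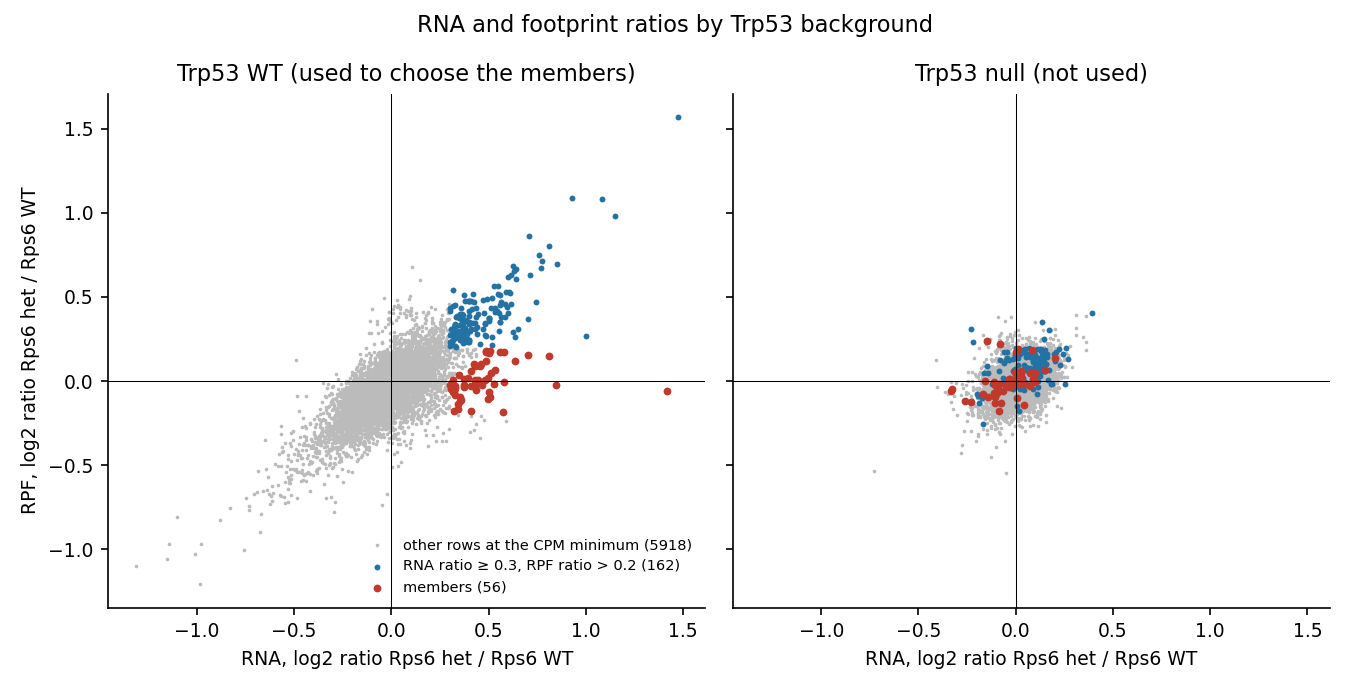
Log2 ratio of Rps6 het over Rps6 WT in RNA (x axis) and in RPF (y axis), 1 point per transcript, in Trp53 WT (left, the values that chose the members) and Trp53 null (right). The 56 members lie to the right of the main cloud near an RPF ratio of 0 in Trp53 WT, and in Trp53 null they lie around 0 on both axes.

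The set was a minority of the transcripts with higher RNA. Of the 6136 rows, 274 had an RNA ratio of at least 0.3. Footprints were also higher, with an RPF ratio over 0.2, for 162 of these, and lower than -0.2 for 9. The remaining 47 had an RPF ratio within 0.2 but a difference above -0.3. The mirror image, RNA down by at least 0.3 with level footprints and a difference of at least 0.3, was met by 5 rows.

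The limits of the rule cut through a continuum. The members nearest the limits had an RNA ratio of 0.304, RPF ratios of 0.179 and -0.185, and a difference of -0.309. The nearest rows left out by 1 criterion alone had an RNA ratio of 0.297, RPF ratios of 0.213 and -0.201, and a difference of -0.2997. On the RNA ratio alone 77 further rows were left out, and on the difference alone 47.

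The member with the most negative difference was ENSMUST00000102926.4. In the Trp53 WT background its RNA measured 68.0, 63.8 and 64.4 CPM in the 3 pools of Rps6 WT, and 177, 159 and 191 CPM in those of Rps6 het. Its footprints were 469, 485 and 470 CPM in Rps6 WT and 445, 452 and 472 CPM in Rps6 het. The RNA groups lay far apart, while the footprint groups overlapped. The RNA ratio was 1.42 and the RPF ratio -0.06, the only RNA ratio above 1 among the members.

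In Trp53 null the RNA of ENSMUST00000102926.4 was 83.3, 78.2 and 72.8 CPM in Rps6 WT and 73.9, 79.5 and 58.5 CPM in Rps6 het. The groups overlapped, and the change of -0.17 ± 0.097 (SE, log2) was not called by edgeR's quasi-likelihood test (adjusted p = 0.529). Without replicate 3 of Rps6 het the change was -0.04 (edgeR adjusted p = 0.929). Footprints were 454, 480.1 and 477 CPM in Rps6 WT and 450.3, 423 and 448 CPM in Rps6 het, a change of -0.09 ± 0.037 (edgeR adjusted p = 0.348). Rps6 het was below Rps6 WT in all 3 pools, a difference that did not pass the test. Footprints thus stayed between 423 and 485 CPM in the 12 RPF libraries, while RNA in Rps6 het, Trp53 WT lay above that of the other 9 RNA libraries.

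ENSMUST00000106251.9 came next, with an RNA ratio of 0.85 and an RPF ratio of -0.02 in Trp53 WT. Its RNA was 125, 110.4 and 127 CPM in Rps6 WT and 226, 172 and 255 CPM in Rps6 het. Its footprints were 2274, 2336 and 2324 CPM in Rps6 WT and 2253, 2316 and 2257 CPM in Rps6 het. RNA of the groups did not overlap, but replicate 2 of Rps6 het was closer to Rps6 WT than its 2 companions.

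In Trp53 null its RNA was 206, 180.3 and 171 CPM in Rps6 WT and 169, 193 and 103 CPM in Rps6 het, a change of -0.29 ± 0.175 (SE, log2; edgeR adjusted p = 0.561). Leaving out replicate 3 of Rps6 het gave -0.05 (edgeR adjusted p = 0.942). Rps6 WT, Trp53 null was thus above Rps6 WT, Trp53 WT in all 3 pools and overlapped with Rps6 het, Trp53 WT. Footprints were 2331, 2354 and 2371 CPM in Rps6 WT and 2231, 2052 and 2214 CPM in Rps6 het, a change of -0.11 ± 0.035 (edgeR adjusted p = 0.157). The RNA groups in Trp53 null overlapped. The footprint groups did not overlap, with Rps6 het lower, and the difference was not called.

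**Figure D2:**
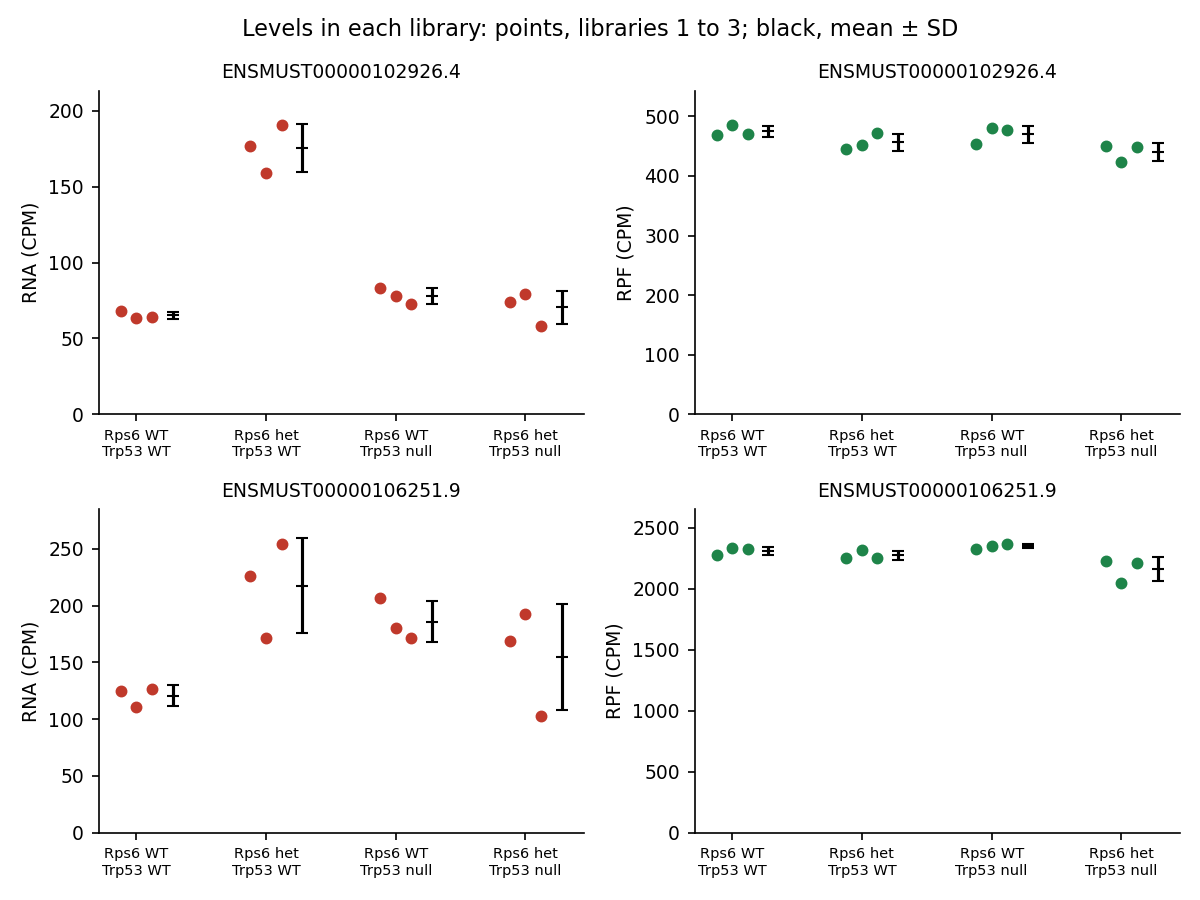
CPM in RNA (left) and RPF (right) of the 2 members with the most negative difference between RPF and RNA ratio; points are the libraries of replicates 1 to 3, and black bars the mean ± SD (n = 3). RNA was highest on average in Rps6 het, Trp53 WT for both, and RPF differed little between genotypes.

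Replicates of Trp53 WT are described here, in the libraries that chose the members. RNA of all 3 Rps6 het libraries lay above all 3 Rps6 WT libraries for 47 of the 56 members, and for 20.4% of the 6136 rows. Footprints did not overlap for 7 members with Rps6 het higher (16% of the rows) and for 12 with Rps6 het lower (34.7%). The ratio of footprints to RNA within a pool was below that of all 3 Rps6 WT pools in all 3 Rps6 het pools for 53 members (19.4%). In edgeR's test across all transcripts, adjusted p-values under 0.05 were reached by 51 members in RNA, all higher in Rps6 het (24.8% of 14411 transcripts tested were called, 13.1% higher). They were reached by 12 members in RPF, all higher (24.9% of 12147, 13.2% higher), and by 23 in TE, all lower (1.17% of 14080, 0.675% lower). Fitting each pool as a block, so that its RNA and RPF libraries are paired, gave 46 members with lower TE (2.79%, 1.95% lower). The same libraries chose the members, so nothing is read from these counts.

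Which transcripts met the rule depended on single pools. Without 1 pool at a time, 47 to 109 rows met it, and 29 of the 56 members met it in all 6 such sets. Leaving out replicate 2 of Rps6 het, Trp53 WT raised the number to 109, of which 50 were among the 56. Leaving out replicate 1 of Rps6 WT, Trp53 WT raised it to 93, again with 50 of the 56. With library totals scaled by TMM, 73 rows met the rule, 46 of them members.

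In the Trp53 null background the same ratios were met by 0 of the 56 members, but also by 0 of the 6136 rows. The RNA ratio reached 0.3 for 0 members and for 8 of the rows, so these counts say nothing particular about the members. RNA ratios ran from -0.33 to 0.20 with a median of -0.02, and the ratio was above 0 for 25 of the 56. RPF ratios ran from -0.18 to 0.24 with a median of -0.01, and the difference had a median of 0.01. Over the 6136 rows these medians were 0.02, -0.01 and -0.04. The median RNA ratio in Trp53 null was 0.08 for the 162 rows whose RNA and footprints were both higher in Trp53 WT, and their RPF ratio was 0.07.

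By edgeR's quasi-likelihood test, 0 of the 56 members were called in RNA between Rps6 het and Rps6 WT in Trp53 null, where 0.0694% of 14411 transcripts were called. Unadjusted p-values were under 0.05 for 2 members (11.3% of all), both higher in Rps6 het, and the DESeq2 Wald test also called 0 (0.271% of all). In RPF 1 member was called, higher in Rps6 het, against 0.906% of 12147 transcripts (0.617% higher). A further look at unadjusted p-values found 10 members under 0.05, of which 5 were higher and 5 lower (12% of all). In TE 0 were called (0.199% of 14080), the unadjusted p-value of 1 member was under 0.05 (5.47%), and DESeq2 called 0 (0.447%). With the pool as a block, TE was called for 0 members (0.405% of all), and the unadjusted p-value was under 0.05 for 3 members, each higher in Rps6 het (7.46%).

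Separation of the pools in Trp53 null was read against the 6136 rows. RNA of Rps6 het lay above Rps6 WT in all pools for 5 members (11.9% of the rows) and below for 0 (4.92%). Footprints lay above for 2 members (7.94%) and below for 8 (12%). Footprints per RNA lay above for 1 member (3.94%) and below for 4 (11.3%). As shares of the 56 members, the 8 with lower footprints are 14.3% and the 5 with higher RNA 8.93%, both near the share of the rows.

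**Figure D3:**
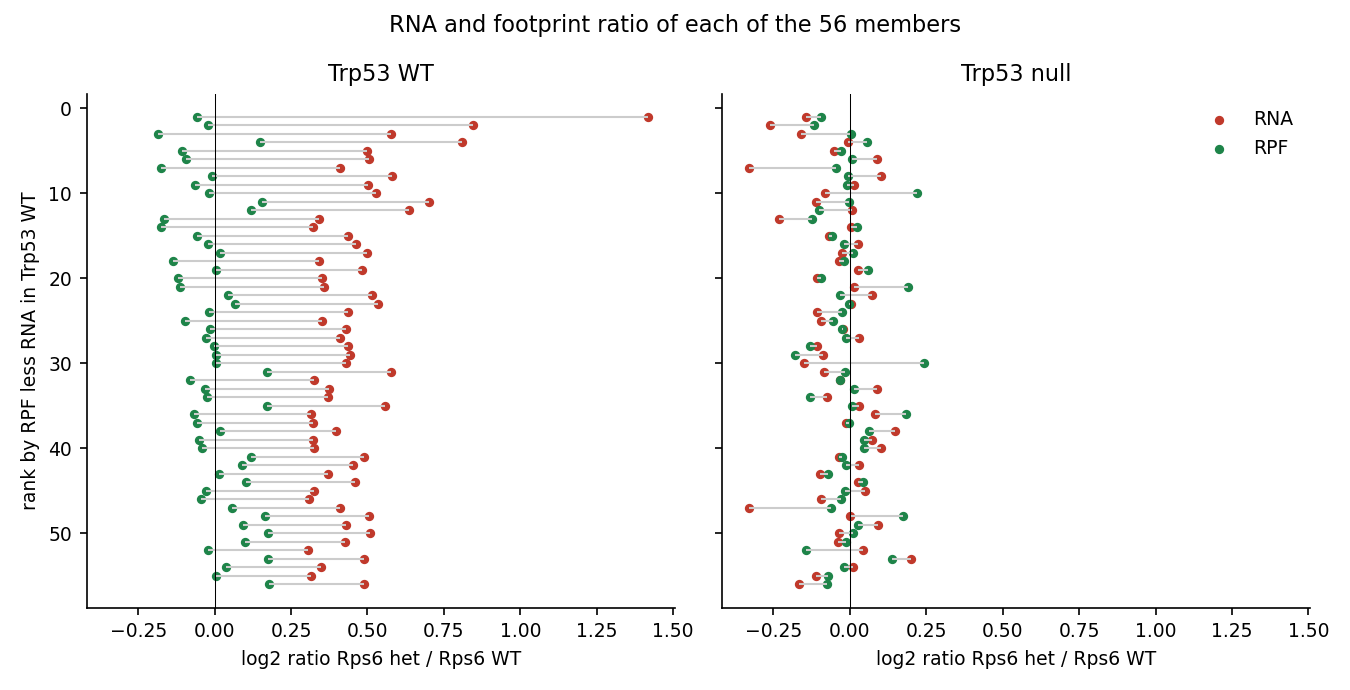
RNA (red) and RPF (green) log2 ratio of Rps6 het over Rps6 WT for each of the 56 members, ordered by the difference in Trp53 WT (rank 1 at the top), in Trp53 WT (left) and Trp53 null (right). Lines join the values of 1 member; in Trp53 null RNA ratios lie between -0.33 and 0.20 and RPF ratios between -0.18 and 0.24.

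The transcripts whose TE was lower in Rps6 het with the smallest p-values in Trp53 null were ENSMUST00000056365.8 and ENSMUST00000067081.9, and neither was called. For ENSMUST00000056365.8 the TE change was -0.16 ± 0.121 (SE, log2; edgeR adjusted p = 1). Its RNA there was 32.8, 33.7 and 33.3 CPM in Rps6 WT and 32.3, 35.7 and 35.0 CPM in Rps6 het, and its footprints were 19.3, 18.6 and 21.0 CPM and 16.6, 18.6 and 18.1 CPM. RNA overlapped between the groups. Footprints of Rps6 het were all below those of Rps6 WT, but its replicate 2 was barely so.

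For ENSMUST00000067081.9 the TE change in Trp53 null was -0.08 ± 0.061 (edgeR adjusted p = 1). Its RNA was 45.5, 44.3 and 43.7 CPM in Rps6 WT, Trp53 null and 48.1, 48.6 and 46.6 CPM in Rps6 het, Trp53 null. The groups did not overlap, but the change of 0.08 ± 0.049 was not called (edgeR adjusted p = 0.555). In Trp53 WT, its RNA was 49.9, 47.9 and 46.1 CPM in Rps6 WT and 71.1, 72.7 and 72.4 CPM in Rps6 het, a ratio of 0.58. Its footprints lay between 123 and 136 CPM in all 12 RPF libraries.

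The 1 member called in RPF in Trp53 null ranked 30 by the difference in Trp53 WT and was singled out after its values were seen. Its footprints were 349, 279.9 and 363 CPM in Rps6 WT and 386, 396 and 389.9 CPM in Rps6 het, a change of 0.25 ± 0.058 (SE, log2; edgeR adjusted p = 0.0303). The groups did not overlap, and replicate 2 of Rps6 WT was the lowest. Without that pool the change was 0.14 and the edgeR adjusted p 0.169. Without any 1 of the Rps6 het pools the change stayed at 0.24 to 0.26, with an adjusted p of 0.0649 to 0.111. Without replicate 1 or replicate 3 of Rps6 WT it was 0.29 and 0.32, with an adjusted p of 0.0317 and 0.00478. The DESeq2 Wald test gave 0.25 with an adjusted p of 0.0899. Its RNA was 789, 624 and 677 CPM in Rps6 WT and 714, 688 and 481 CPM in Rps6 het, and the groups overlapped.

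The members had a wide spread of RNA between the Trp53 null pools. The rule did not use these pools, but its cutoff on RNA means of 3 libraries favours rows with variable RNA. Its limit on the RPF ratio favours rows with steady footprints. A transcript's spread can be shared between genotypes, so these spreads are not independent of the choice. In Trp53 null the SD of log2 CPM between libraries of a group, pooled over both groups, had a median of 0.156 for the members, 0.0845 for the 162 rows higher in RNA and footprints, and 0.0728 for the 6136 rows. It was above the median of the 6136 rows for 50 of the 56 members and in their upper quartile for 43. In footprints the same SD was 0.0541 for the members and 0.0635 for the 6136 rows, and 22 members were above the median. RNA of the members thus varied more than that of most rows, and their footprints varied about as much as those of most rows.

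Much of this spread lay in 1 library. In Rps6 het, Trp53 null the median SD of RNA was 0.19 with all 3 libraries and 0.0511 without replicate 3, against 0.0713 and 0.041 for the 6136 rows. In Rps6 WT, Trp53 null it was 0.103 against 0.0658, and in Trp53 WT it was 0.0865 against 0.0461 in Rps6 WT and 0.104 against 0.0594 in Rps6 het. The Trp53 WT libraries chose the members, so their spread is a description. Without replicate 3, 32 of the 56 members were above the median SD of the rows in Rps6 het, Trp53 null, against 51 with it. In Rps6 WT, Trp53 null 37 of the 56 were above it.

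The level of the members as a group was compared in each library. Relative to each member's own mean over the 12 RNA libraries, the median deviation in Rps6 het, Trp53 WT was 0.326, 0.189 and 0.319 on the log2 scale in replicates 1 to 3. It was -0.0987, -0.2 and -0.177 in Rps6 WT, Trp53 WT. In Trp53 null it was 0.0338, -0.0622 and -0.116 in Rps6 WT and 0.0387, 0.0131 and -0.29 in Rps6 het. Replicate 3 of Rps6 het, Trp53 null was therefore the lowest of the 12 libraries, and 2 of the 56 members were above their own mean in it. In RPF all 12 medians lay between -0.0304 and 0.0296. The part of this library in the results was not tested beyond the values without it.

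**Figure D4:**
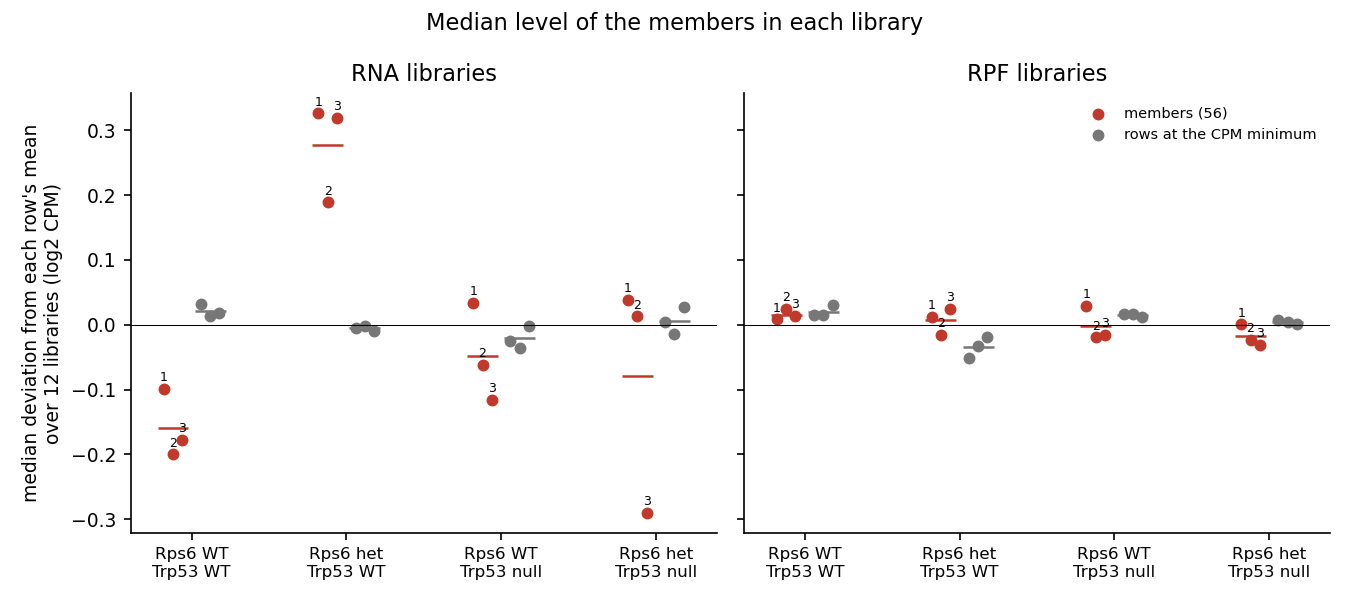
Median deviation of log2 CPM from each transcript's mean over the 12 libraries of its kind, for the 56 members (red, numbered by replicate) and the 6136 rows at the CPM minimum (grey), with lines at group means. In RNA the members lie at 0.189 to 0.326 in Rps6 het, Trp53 WT and at -0.29 in replicate 3 of Rps6 het, Trp53 null, and in RPF they lie near 0 throughout.

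The direction of the members' RNA in Trp53 null rested on single libraries. The median RNA ratio of -0.02 became 0.08 without replicate 3 of Rps6 het and 0.02 without replicate 1 of Rps6 WT. The median difference of 0.01 became -0.08 and -0.03 in the same order. In edgeR the RNA change was above 0 for 18 of the 56 members, and for 39 without replicate 3 of Rps6 het. The TE change was above 0 for 39 members, and for 14 without that pool. By replicate number, the median RNA ratio of the members was 0.00293, 0.078 and -0.162 in replicates 1, 2 and 3, and it was above 0 for 29, 43 and 11 members. The pooled SD between pools of the median deviation was 0.134 in RNA and 0.02 in RPF. The RNA value includes the low replicate 3 of Rps6 het and is not the error of a difference of means. The median RNA ratio in Trp53 null was smaller than this SD, which does not show that RNA was unchanged. In Trp53 WT the values by number were 0.44, 0.379 and 0.513, above 0 for all 56 members in each.

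The order of the 4 genotypes is given as a description, since the rule required RNA to be high in Rps6 het, Trp53 WT, low in Rps6 WT, Trp53 WT, and footprints to be level between them. Rps6 het, Trp53 WT had the highest mean for 52 of the 56 members and Rps6 WT, Trp53 null for the other 4. All 3 libraries of Rps6 het, Trp53 WT were above all 9 others for 36 members, against 704 of the 6136 rows. Rps6 WT was higher in Trp53 null than in Trp53 WT for 47 members, with a median log2 ratio of 0.13, whereas the median over the 6136 rows was -0.04. This ratio shares the Rps6 WT, Trp53 WT libraries with the rule, in which members had to be low. Against Rps6 WT, Trp53 null in place of these controls, Rps6 het, Trp53 WT had a median RNA ratio of 0.32 and was higher for 52 members. The rule chose the numerator of this ratio to be high, and the Trp53 genotype differs too.

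In footprints the highest mean was in Rps6 WT, Trp53 WT for 18 members, in Rps6 het, Trp53 WT for 21, in Rps6 WT, Trp53 null for 10 and in Rps6 het, Trp53 null for 7. The range between the highest and lowest genotype mean had a median of 0.117 on the log2 scale in RPF and 0.4601 in RNA. For the 6136 rows the same medians were 0.154 and 0.159. The rule sets a lower limit on the RNA range and holds a pair of the RPF means close, so nothing is read from this contrast.

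One member, singled out after its values were seen, had far lower levels in Trp53 null. It ranked 56, with the difference closest to the limit. With Trp53 WT, its RNA averaged 106 ± 7.45 CPM (SD, n = 3) in the Rps6 WT pools and 149 ± 24.5 CPM in the Rps6 het pools. In Trp53 null these values were 21.7 ± 3.00 and 19.3 ± 2.77 CPM. Its footprints were 497 ± 8.93, 563 ± 2.13, 112 ± 2.36 and 107 ± 3.56 CPM in the same order. It was the lowest in the Trp53 null over Trp53 WT ratio of RNA in Rps6 WT, at -2.26, among the members and among all 6136 rows. Without gene names, whether this row is Trp53 itself, the gene disrupted in Trp53-/- embryos, was not tested.

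The members also carried many footprints for their RNA. In Rps6 WT, Trp53 null, the log2 ratio of RPF CPM to RNA CPM within a transcript had a median of 1.30 for the members. The median was 0.42 for the 162 rows and 0.03 for the 6136 rows. It was above the median of the 6136 rows for 48 of the 56 members and in their upper quartile for 41. The rule did not use these libraries, but the members' median was similar in Rps6 WT, Trp53 WT, at 1.43. There the rule required RNA to be low relative to Rps6 het, so this ratio is not independent of the choice. The ratio depends on how much of a transcript is coding, since by the name of the table footprints were counted in the coding sequence and RNA in total, and lengths were not known. Across pools it was 1.28 to 1.38 in Rps6 WT and 1.27 to 1.49 in Rps6 het of Trp53 null, where the groups overlapped. In Trp53 WT it was 1.38 to 1.46 in Rps6 WT and 0.904 to 1.02 in Rps6 het.

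**Figure D5:**
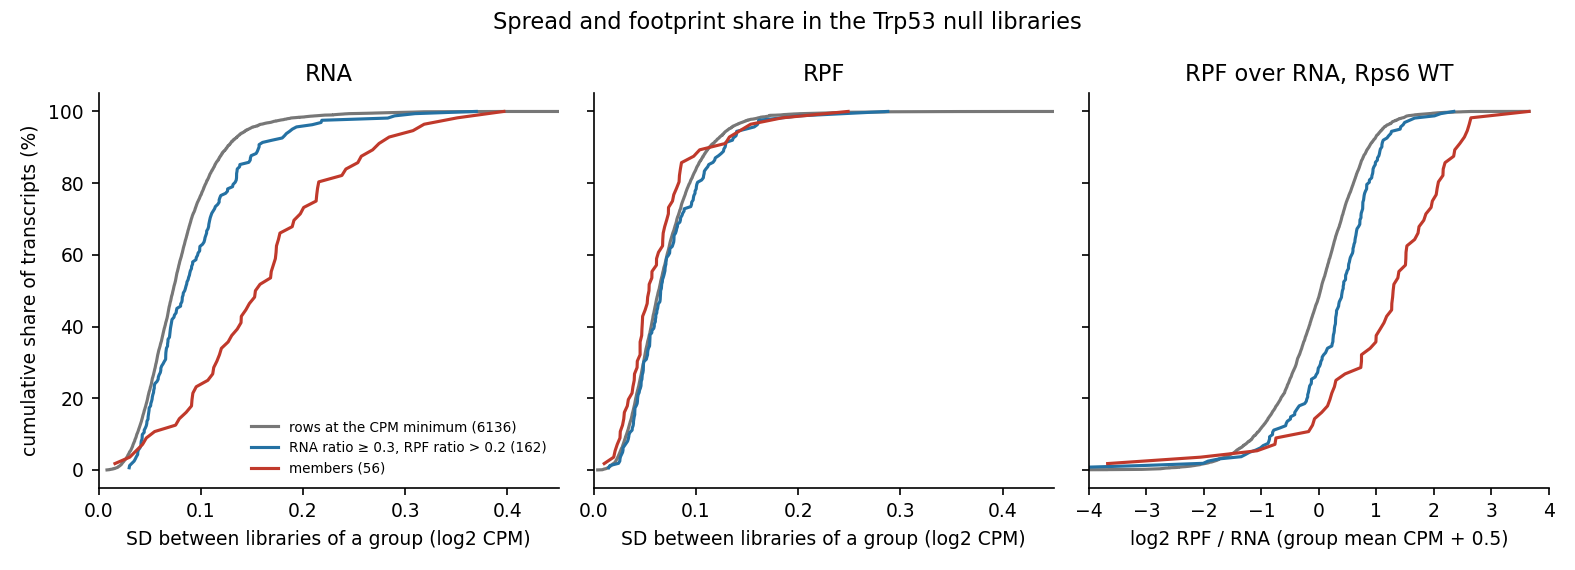
Cumulative share of transcripts by the SD between libraries of a Trp53 null group in RNA (left) and RPF (middle) and by the log2 ratio of RPF to RNA in Rps6 WT, Trp53 null (right). The members (red) have a wider RNA spread (median 0.156 against 0.0728) and a higher RPF to RNA ratio (1.30 against 0.03) than the 6136 rows (grey), and a similar RPF spread.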

How the data were processed

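The authors deposited 1 table of raw counts per Ensembl transcript for 24 libraries; per the file headers RPF and RNA libraries are columns of 1 table, whose name gives coding sequence for RPF and total for RNA. The submitters' processing notes name Bowtie2, UMI-tools and the builds GRCm38 and mm10; other steps are not given in the sources used here. Whether counts are of unique molecules is not stated, so floors cover counting error only: 3 counts are at most 0.427 CPM. Nothing states that pools came from separate litters, so p-values measure the spread between these pools.

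From the counts, CPM and the log2 ratios of the rule were computed on library totals with a pseudocount of 0.5. Tests used edgeR 4.0.16 in R 4.3.3 (quasi-likelihood F test, TMM within each library kind, filterByExpr with a minimum count of 10 and total of 15), fitted on all transcripts and all 4 genotypes, with Benjamini-Hochberg adjustment and a threshold of 0.05. The test was also run on counts simulated with the same dispersion setting for every transcript. This does not show how well it detects changes in the members, whose RNA spread was wider than that of most rows. TE was the RPF change less the RNA change in 1 model of 24 libraries. DESeq2 1.42.0 was an alternative, with other scaling, no filter, blocks and left-out pools. All 56 members passed the filter in each fit.

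Per the labels' protocols, RNA and RPF were taken from the same lysates, and libraries of 1 genotype and number were read as 1 pool. Their deviations from group means correlated with r = 0.178 to 0.559 across transcripts in the 12 pools, so the pool was also fitted as a block. Same-numbered RNA libraries of Rps6 WT and Rps6 het in Trp53 null correlated as well (r = 0.463, 0.15 and 0.553), though nothing in the labels says what they share.

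The rule for named transcripts took the 2 members with the most negative difference in Trp53 WT and the 2 with the smallest TE p-value in Trp53 null among those with lower TE. The members, lists and rules were chosen with earlier results of these data known.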

Additional observations from a re-analysis of the deposited data

Results flagged for a closer look

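For 3 of the 56 members (5.36%), RNA of every Rps6 het pool was above the Rps6 WT mean in Trp53 WT. In Trp53 null their RNA was below the Rps6 WT mean in every Rps6 het pool. Both held for 2.51% of the 6136 rows at the CPM minimum and 6.17% of the 162 rows higher in RNA and footprints. For 3 members (5.36%) the ratio of footprints to RNA was below the Rps6 WT mean in every Rps6 het pool in Trp53 WT. In Trp53 null it was above the Rps6 WT mean in every Rps6 het pool. Both held for 1.61% of the 6136 rows and 1.85% of the 162. Pools moved in opposite directions in the 2 backgrounds, and the difference was not tested. The direction in Trp53 WT was fixed for the members by their choice, but not for the 6136 rows. The shares of these rows are therefore not a like base for 5.36%.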

How the results depend on the processing

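The number of rows that met the rule was 56 as given, 31 with a CPM minimum of 50, 37 with an RPF limit of 0.1 and 47 to 109 without 1 pool at a time; the first 2 settings can only remove rows. With a CPM minimum of 10 it was 79, with a pseudocount of 5 it was 50 and with mean log2 CPM it was 55. In RPF in Trp53 null, the 1 called member became 4 with no filter on low counts (1.72% of all transcripts called) and 0 to 2 without 1 pool at a time (0.49% to 0.752%). Leaving out replicate 2 of Rps6 WT and replicate 3 of Rps6 het together, chosen after seeing the data, gave 0 (0.343%). DESeq2 called 1 member in RPF (1.09%), a different one, which was lower in Rps6 het. In RNA and TE, 0 members were called under every alternative run. Over all transcripts these runs called 0.0274% to 0.322% in RNA and 0% to 0.447% in TE. With replicate 3 of Rps6 het and replicate 2 of Rps6 WT left out together the median ratios in Trp53 null were 0.07 in RNA and -0.02 in RPF, and the median difference was -0.07. Without 1 pool at a time the median RNA ratio was -0.09 to 0.08.

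With a replicate block for the number, 0 members were called in RNA (0.0833% of all transcripts), 1 in RPF (1.38%) and 0 in TE (0.256%). These counts of members were the same without the block. The pool as a block called 0 in TE (0.405%). Same-numbered RPF libraries in Trp53 null did not deviate together (r = -0.059 to 0.055), and in Trp53 WT r was 0.092 to 0.292 in RNA. Over all transcripts the pool as a block raised the TE calls in Trp53 null from 28 to 57.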
